A study of Mus musculus with 6 samples.

Results

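Krt6a, Krt6b, Krt16, Krt17 and Krt75 are the mouse keratin genes linked to activated, stressed or wounded epithelium. These 5 genes were taken by symbol from the 17866 genes of the deposited table, which listed 52 genes whose symbol starts with Krt and a digit, and all 5 had enough counts to be tested. The material was the corneal epithelial layer of C57BL/6 mice at 6 months of age, from 3 mice labelled WT and 3 labelled Rela-/- (hereafter KO), each library being an independent biological sample. Per the study's methods the KO animals carried a floxed Rela allele and a Cre recombinase under the Krt14 promoter, so that Rela, the gene for the NF-κB subunit p65, was deleted in cells with a history of Krt14 expression. That promoter is also active in other stratified epithelia of the eyelid and skin, and Krt14, whose promoter drives Cre, is itself a close relative of Krt16 and Krt17. The controls were described as age-matched, and no Cre or floxed allele was named for them.

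Keratins form the intermediate filaments of epithelial cells as obligate pairs of an acidic type I and a basic type II chain. Krt6a and Krt6b are type II chains and Krt16 and Krt17 type I chains, and in skin these genes are switched on in keratinocytes at wound edges and in inflamed or hyperproliferating epidermis, while being constitutive in parts of the hair follicle and nail and in oral epithelium. Krt75 is a type II chain best known from the companion layer of the hair follicle. In resting cornea the main pair above the basal layer is Krt5 with Krt12, and basal stratified epithelia elsewhere use Krt5 with Krt14.

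The 6 libraries held between 20158404 and 20880347 estimated counts and were of nearly equal depth. Rela had 1871, 1844 and 1855 counts in WT against 318, 223 and 313 counts in KO, 16.5% of the WT level on the scale of CPM (counts scaled by TMM factors to a library total of 1000000). The corneal marker genes were present in all libraries, and 6 of 7 were called lower in KO, where 30.2% of all tested genes were. Krt12 and Pax6 were among the 6, while Clu had a log2 fold change of 0.01. Among the WT libraries, WT replicate 2 stood apart for a small set of genes that includes Krt16. In it 57 of 13305 tested genes, 0.428%, were more than 2-fold above both other WT libraries on the scale of log2(CPM + 1), against 8 genes for WT replicate 1 and 23 for WT replicate 3. Results that rest on this library are therefore given with and without it.

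The genes sit in the 2 keratin clusters of the genome, and how alike they are bears on how the reads could be assigned. On GRCm38, Krt6b (gene 16688, chr15:101676023-101680289) and Krt6a (gene 16687, chr15:101689928-101694305) are neighbours separated by 9639 bases, and Krt75 (gene 109052, chr15:101563343-101573904) lies in the same type II cluster. Krt16 (gene 16666, chr11:100246091-100248902) and Krt17 (gene 16667, chr11:100256215-100261029) are separated by 7313 bases in the type I cluster. In the GENCODE M21 annotation the type II members have 9 exons and the type I members 8, and all 5 lie on the minus strand. The coding sequences of Krt6a and Krt6b were identical at 97.8% of 1659 aligned bases, whereas Krt16 and Krt17 were identical at 75.8% and Krt16 and Krt14 at 86.2%.

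The first pair of sequences shows why a short read can be ambiguous between Krt6a and Krt6b. It is the same stretch of coding exon 1 in both genes (GRCm38 minus strand, GENCODE M21, chr15:101694166-101694215 in Krt6a and chr15:101680141-101680190 in Krt6b), as long as a read, and holds no difference.
Krt6a exon 1: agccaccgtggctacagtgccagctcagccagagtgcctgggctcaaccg
Krt6b exon 1: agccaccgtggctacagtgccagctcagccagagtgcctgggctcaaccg
The next pair is the stretch where these genes differ most, in coding exon 4 (chr15:101692484-101692533 and chr15:101678303-101678352). Capitals mark the 10 bases that differ.
Krt6a exon 4: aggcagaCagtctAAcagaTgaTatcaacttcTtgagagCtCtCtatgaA
Krt6b exon 4: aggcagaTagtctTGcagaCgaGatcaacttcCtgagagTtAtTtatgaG

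A second pair is shown because Krt14 and Krt16 both peaked at WT replicate 2 within WT, as described further on. The first 50 coding bases of Krt16 (chr11:100248841-100248890, exon 1, minus strand) and of Krt14 (chr11:100207406-100207455, exon 1, minus strand) are the same.
Krt16 exon 1: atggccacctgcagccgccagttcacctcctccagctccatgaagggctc
Krt14 exon 1: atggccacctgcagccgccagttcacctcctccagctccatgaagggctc
The last pair is the most divergent stretch of Krt16 and Krt17, in exon 1 (chr11:100248557-100248606 and chr11:100260719-100260768), with 23 differing bases in capitals.
Krt16 exon 1, later stretch: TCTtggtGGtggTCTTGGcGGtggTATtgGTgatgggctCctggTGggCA
Krt17 exon 1, later stretch: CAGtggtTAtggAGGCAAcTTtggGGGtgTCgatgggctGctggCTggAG

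The transcripts were cut into all stretches of 50 bases, the read length of the study. Of the Krt6a stretches 43.6% occurred without a mismatch in Krt6b, and of the Krt6b stretches 44.5% in Krt6a. With every annotated gene counted, 62.0% of Krt6a and 50.1% of Krt6b stretches were shared, Krt5 holding 6.7% and 2.2%. For Krt16 the share found in Krt14 was 12.4% and in Krt17 0.4%, and a further pseudogene that is not among the genes of the table, Gm11597, held 25.2%. Krt17 shared 3.7% with Krt14, and Krt75 shared no stretch with any other named keratin. The deposited counts of all 5 genes were not whole numbers in any library, as happens where an estimator divides ambiguous reads, so the separate values of Krt6a and Krt6b are less certain than their sum.

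**Figure D1:**
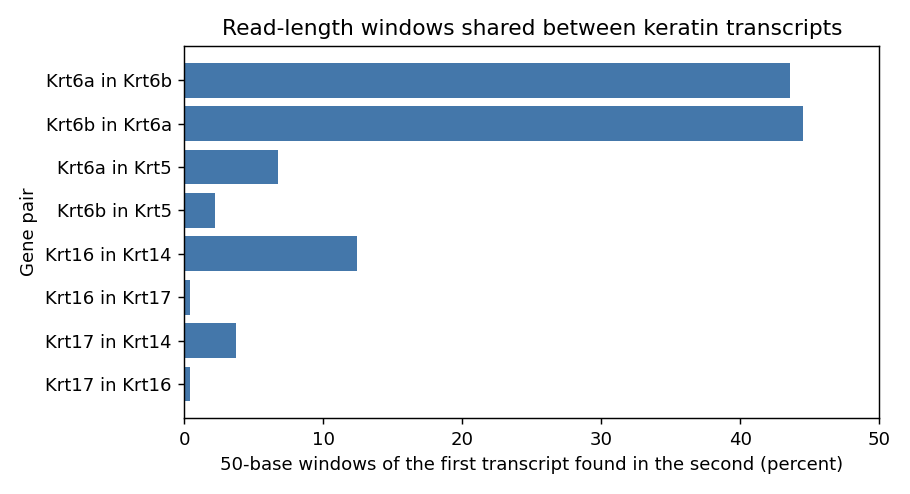
The plot of shared sequence gives, for each pair of keratin transcripts, the percent of 50-base stretches of the first transcript found without mismatch in the second. The bars of Krt6a and Krt6b reach 43.6% and 44.5%, that of Krt16 in Krt14 reaches 12.4%, and those between Krt16 and Krt17 are at 0.4%.

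The comparison of genotypes asks which keratins of activated epithelium differed between KO and WT at 6 months of age. Per the study, a thick keratinized epithelium by then overlay the central cornea of KO mice, formed after the earlier epithelium was lost. Whether the differences follow from the deletion itself or from that tissue change was not tested. Krt6a, Krt6b, Krt16 and Krt17 were higher in KO and Krt75 was not called. Thus 4 of 5 genes passed an adjusted p of 0.05 in the upward direction (edgeR quasi-likelihood test, adjusted over all tested genes), where 31.8% of all tested genes did, and 62% passed in either direction. At an adjusted p of 0.001 and at least 2-fold, Krt6a, Krt6b and Krt17 passed, against 11.6% of tested genes. Without WT replicate 2 the same 4 genes passed the first threshold, where 31.2% of tested genes did and 58.1% in either direction, and Krt6a, Krt6b, Krt16 and Krt17 passed the second, where 10.4% did. For the same 4 genes every KO library lay above every WT library in CPM, which was the case for 34.7% of tested genes.

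The type II pair was already abundant in WT cornea and became more so in KO. Krt6a had 109597, 157871 and 128119 counts in WT against 335770, 377717 and 333821 in KO. The WT libraries averaged 6144 ± 1164 CPM and the KO libraries 17528 ± 1242 CPM (means ± SD of 3 libraries, here and below), a 2.85-fold difference with a log2 fold change of 1.51 (SE 0.166, 95% interval 1.13 to 1.89, edgeR adjusted p = 0.000101). The groups were well separated, the lowest KO library having more than 2-fold the counts of the highest WT library.

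Krt6b had 139166, 164148 and 159007 counts in WT against 373870, 455303 and 369947 in KO. Its level went from 7180 ± 699 to 20069 ± 2411 CPM, with a log2 fold change of 1.48 (SE 0.148, 95% interval 1.14 to 1.82, edgeR adjusted p = 6.05e-05). The libraries of each group lay close together and the groups did not overlap. Because reads of these genes are interchangeable over much of their length, their counts were also summed, and the log2 fold change of the sum lay between the separate values (SE 0.156, edgeR adjusted p = 7.76e-05).

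Krt17, the type I keratin of basal and activated keratinocytes, showed the largest fold among the 5 genes and was low in WT. It had 294, 678 and 404 counts in WT against 31062, 29088 and 37189 in KO. This was 21.4 ± 9.26 CPM against 1628 ± 203 CPM, a 76.1-fold difference with a log2 fold change of 6.25 (SE 0.335, 95% interval 5.48 to 7.02, edgeR adjusted p = 2.54e-06). All 3 KO libraries were far above all 3 WT libraries, and WT replicate 2 was the highest of the WT libraries. Without that library the log2 fold change was 6.65.

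Krt16, the usual type I partner of the Krt6 chains, was high in KO and divided the WT group. It had 209, 18787 and 360 counts in WT against 86804, 79508 and 94747 in KO. The KO libraries agreed closely and all lay above WT replicate 2, while WT replicates 1 and 3 were near the low Krt17 level. The means were 300 ± 497 CPM in WT and 4368 ± 367 CPM in KO. The log2 fold change was 3.86 with a wide error (SE 1.47, 95% interval 0.49 to 7.24) and an adjusted p of 0.0479 (edgeR).

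The Krt16 call therefore rested on a thin margin. Without WT replicate 2 the log2 fold change was 8.36 (edgeR adjusted p = 1.51e-06). Leaving out any 1 of the other 5 libraries gave 3.31 to 3.92 with an adjusted p between 0.0621 and 0.0857, that is, no call. Over 17 alternative settings the gene was called in 8 and not in 9, with the sign upward in each, and its sums with Krt17 or with Krt14 and Krt17 were called.

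Krt75, the follicle-associated type II chain, was scarce in both genotypes. It had 323, 168 and 236 counts in WT against 232, 246 and 399 in KO. The groups overlapped, WT replicate 1 lying above KO replicates 1 and 2. It averaged 11.3 ± 3.48 CPM in WT against 14.7 ± 4.53 CPM in KO, and the log2 fold change was 0.38 (SE 0.27, edgeR adjusted p = 0.251). The 95% interval of the change, -0.24 to 1.00 on the log2 scale, leaves room for up to a 2-fold rise.

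**Figure D2:**
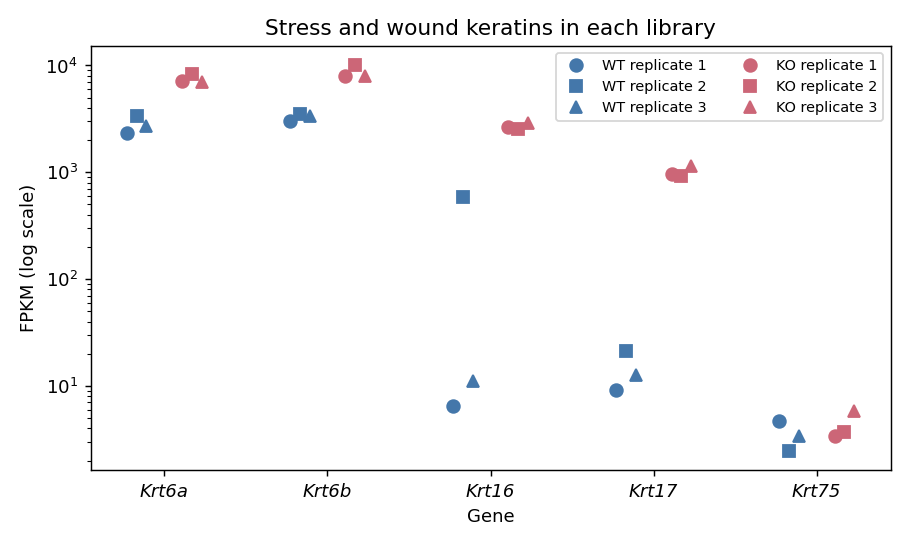
The plot of levels by library shows FPKM on a log axis for each gene, with 1 point per library, WT in blue and KO in red, and the symbol giving the replicate. Krt16 in WT replicate 2 (581 FPKM) lies between the other WT libraries (6.48 and 11.1 FPKM) and the KO libraries (2525 to 2905 FPKM), and the Krt75 points of both genotypes overlap.

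Levels between genes were compared per length, as FPKM. In WT the order of the means was Krt6b, Krt6a, Krt16, Krt17 and Krt75. Krt6b (3309 ± 275 FPKM) and Krt6a (2805 ± 516 FPKM) had overlapping ranges and held places 11 and 13 among all genes by mean FPKM. In KO they reached 8657 ± 1213 and 7485 ± 675 FPKM, places 4 and 5, and the ratio of Krt6b to Krt6a stayed between 1.05 and 1.28 over all 6 libraries.

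For the type I members the order in WT depended on the library. Krt16 measured 6.48, 581 and 11.1 FPKM and Krt17 measured 9.19, 21.1 and 12.6 FPKM in WT replicates 1, 2 and 3. Krt16 was thus below Krt17 in WT replicates 1 and 3, at ratios of 0.705 and 0.881, and above it in WT replicate 2, at 27.5. In KO the ratio was 2.77, 2.71 and 2.53, with Krt16 at 2704 ± 191 FPKM (place 20) and Krt17 at 1017 ± 117 FPKM (place 82). Krt75 stayed at 3.54 ± 1.14 FPKM in WT and 4.3 ± 1.3 FPKM in KO, at places 8898 and 8313.

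The spread among WT libraries was unequal between the 5 genes. As the ratio of the highest to the lowest WT library in CPM it was 1.2 for Krt6b, 1.46 for Krt6a, 1.89 for Krt75, 2.35 for Krt17 and 91.2 for Krt16. Among KO libraries the same ratio was between 1.14 and 1.27 for the 4 called genes and 1.69 for Krt75. Krt16, the most spread of the 5 in WT, was at 1.18 in KO.

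Set beside all tested genes, whose median SD of log2(CPM + 1) was 0.12 in WT and 0.149 in KO, the Krt16 SD of 3.48 in WT was exceeded by 1 gene, Hmga1b, named here after its values were seen. Krt17, with an SD of 0.589, had a larger WT spread than 98.4% of tested genes. The same held at 95.7% for Krt75, 87.3% for Krt6a and 60.7% for Krt6b. WT replicate 2 was the highest WT library for 4 of the 5 genes, as for 4415 of 13305 tested genes, and the lowest for Krt75. In FPKM the highest-to-lowest ratios among WT were 1.18 for Krt6b, 1.44 for Krt6a, 1.93 for Krt75, 2.3 for Krt17 and 89.6 for Krt16.

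The genes whose pattern was most like that of Krt16 shared the position of WT replicate 2, which choosing by likeness to Krt16 largely fixes. Likeness was the root mean square difference of centred log2(CPM + 1) values over the 6 libraries, and these values are descriptions without a test. Nearest were S100a9 (0.881) and S100a8 (1.16), the subunits of the calcium-binding alarmin calprotectin, followed by Cdsn (1.45), which encodes corneodesmosin.

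S100a9 had 17, 1263 and 28 counts in WT against 2312, 8001 and 4844 in KO. S100a8 had 0, 160 and 1 counts in WT against 1297, 4097 and 2024 in KO. Cdsn had 149, 583 and 138 counts in WT against 36054, 12359 and 22012 in KO. In each, WT replicate 2 was the highest WT library and stayed below every KO library. S100a9 was called with a log2 fold change of 3.64 (edgeR adjusted p = 0.0354), a call lost in 6 of 17 alternative settings, among them those without WT replicate 1 (3.09), WT replicate 3 (3.10), KO replicate 2 (3.14) or KO replicate 3 (3.67), and without WT replicate 2 the value was 7.91.

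Krt14, the basal type I keratin, followed the order of Krt16 within WT, with 5207, 25395 and 6712 counts against 184060, 223531 and 205085 in KO. The order among KO libraries differed, KO replicate 2 being the highest for Krt14 and the lowest for Krt16. Of the 22 genes of a wound-edge list, S100a8, S100a9 and Sprr1a, a cornified envelope precursor, were more than 2-fold higher in WT replicate 2 than in both other WT libraries. None of the transcription factors, filament partners or corneal markers listed was. Only 0.428% of all tested genes were, so short lists would mostly hold none. The summed level of the limbal markers, which include Krt14, was 3492 CPM in WT replicate 2 against 1990 and 3014 CPM, and of its other members Ifitm3 had 869 counts there against 226 and 452, while Gpha2 had 248 against 236 and 275. The leukocyte gene Ptprc had 5 counts in WT replicate 2 and 13 and 8 in the other WT libraries, and the immune markers summed to 267 CPM against 288 and 339 CPM. The stromal keratocyte markers, all at low counts in WT, summed to 3.21 CPM there against 0.687 and 1.39 CPM. Of the 5 tested, 4 were above both other WT libraries, where 4415 of 13305 tested genes were. The same held for 2 of 5 limbal, 1 of 7 immune and 10 of 22 wound-edge genes. Col1a1, a collagen chain of the stroma, had 26 counts there against 1 and 8. The sebaceous or meibomian markers summed to 6.89 CPM against 4.88 and 5.75 CPM, and Muc5ac, the goblet cell mucin, was at 0 in all WT libraries. The part of other cell populations in the WT replicate 2 values was not tested.

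**Figure D3:**
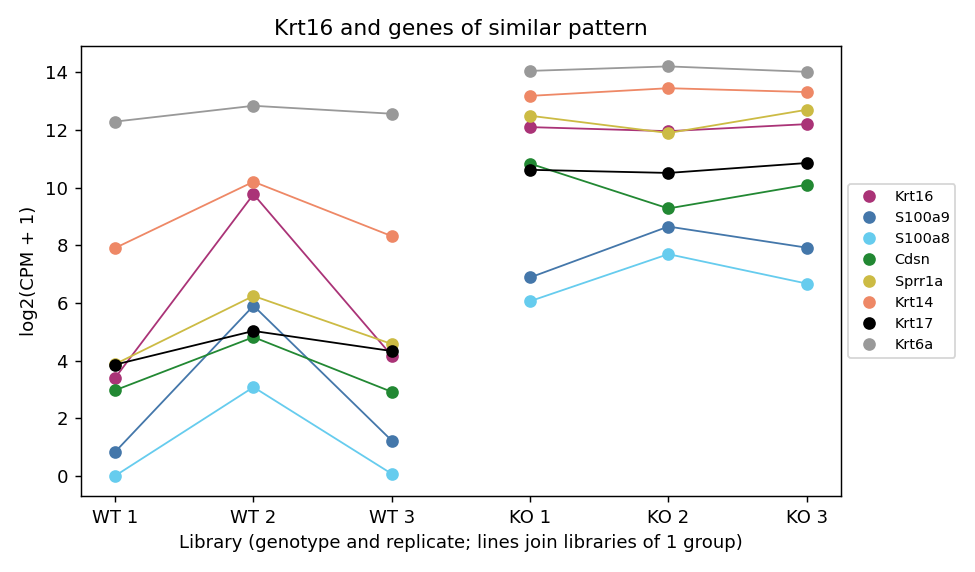
The plot of Krt16 and similar genes gives log2(CPM + 1) per library, with lines joining the libraries of a genotype, which have no order. Krt16, S100a9, S100a8, Cdsn, Sprr1a and Krt14 all peak at WT replicate 2 within WT, while Krt17 and Krt6a, drawn for comparison, differ less between WT libraries.

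The nearest patterns of the other members were of a different kind. For Krt6a they were Lsm3 (0.0539), Nme1 (0.0586) and Pcbp4 (0.067), and for Krt6b Sec11c (0.0412), Dhrs7 (0.0717) and Lsm3 (0.0746). Lsm3 encodes an RNA-binding protein of the splicing machinery, Nme1 a nucleoside diphosphate kinase and Sec11c a subunit of the signal peptidase. Lsm3, for example, had 261, 343 and 285 counts in WT against 765, 859 and 768 in KO. The libraries of each genotype lay close together in it, as for the Krt6 genes. Krt6a and Krt6b themselves differed by 0.102 on this measure.

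For Krt17 the nearest were Sh3kbp1 (0.278), Sprr2h (0.281) and Gsdma (0.311). Sh3kbp1, an adaptor of receptor endocytosis, had 10, 24 and 10 counts in WT against 2056, 2514 and 2083 in KO. Gsdma, a gasdermin of the epidermis, had 14, 30 and 28 counts in WT against 4654, 2979 and 3543 in KO. Both were far lower in WT than Krt17 itself, and in both the groups were well separated. Krt16 and Krt17 differed from each other by 1.69 and Krt6a and Krt17 by 2.38, so the genes of the group did not share 1 pattern. For Krt75 the nearest were Gm10639, Phlda2 and Stap1, each at low counts, with none called by edgeR.

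Within the pool of all keratins the balance of the chain types was similar in both genotypes while its make-up differed. The summed FPKM of 24 type II genes was 0.756, 0.772 and 0.74 of that of 27 type I genes in WT and 0.798, 0.772 and 0.826 in KO. Krt6a and Krt6b together made up 28.7%, 33.2% and 32.8% of type II FPKM in WT and 44.0%, 53.4% and 47.3% in KO. They thus accounted for a larger share in each KO library than in any WT library, although the pool itself had grown from 19341 ± 1218 to 33440 ± 1635 FPKM.

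Krt16 and Krt17 together made up 0.0636%, 2.24% and 0.0937% of type I FPKM in WT and 8.45%, 7.77% and 10.6% in KO. The summed FPKM of Krt6a and Krt6b was 341, 11.4 and 259 times that of Krt16 and Krt17 in WT and 4.16, 5.3 and 3.68 times in KO. In WT cornea the Krt6a and Krt6b transcripts were therefore present in large excess over those of Krt16 and Krt17, least so in WT replicate 2. In KO the excess was smaller in every library.

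The other chains of the pool moved around them. Krt5, the main type II chain of WT, went from 65.8% ± 2.71 to 13.9% ± 0.881 of type II FPKM, so that the ratio of Krt5 to Krt6b passed from 3.86 ± 0.391 to 0.541 ± 0.0558. Krt4, a mucosal type II chain, went from 0.371% ± 0.176 to 29.4% ± 0.948. Among type I chains Krt12, the cornea-specific keratin, went from 87.2% ± 2.58 to 9.88% ± 2.3, Krt13, the mucosal partner of Krt4, from 4.97% ± 1.23 to 54.9% ± 5.65, and Krt14 from 1.44% ± 1.21 to 14.6% ± 1.67.

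**Figure D4:**
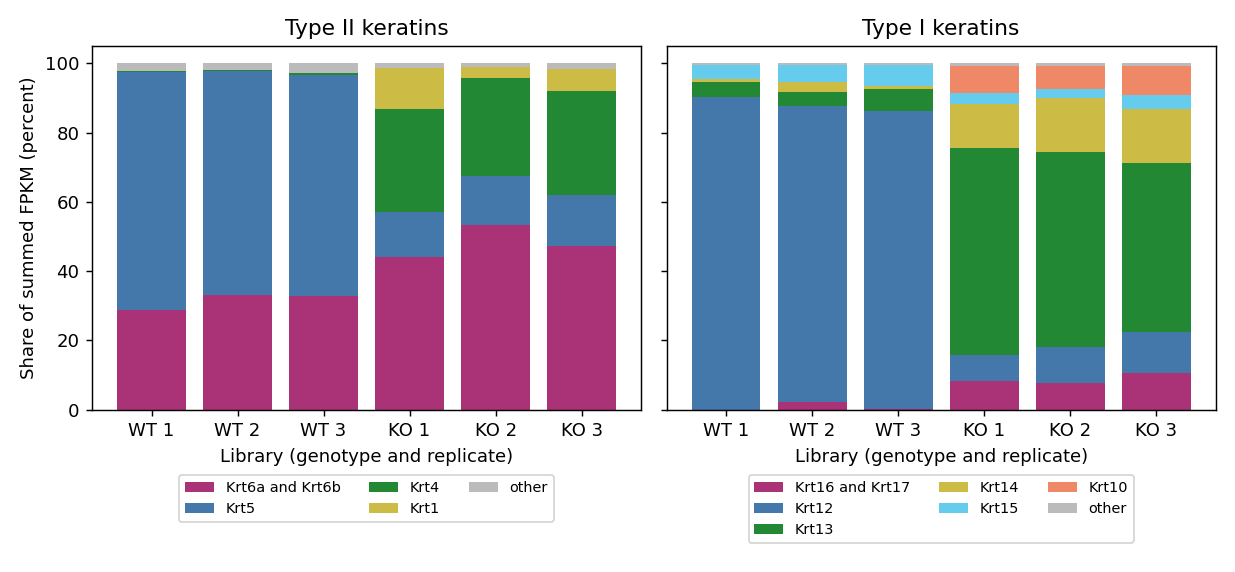
The plot of the keratin pool stacks each gene's percent of summed FPKM per library, type II on the left and type I on the right, with colours naming the genes. Krt6a and Krt6b take 28.7% to 33.2% of type II in WT and 44.0% to 53.4% in KO, and Krt16 and Krt17 take at most 2.24% of type I in WT and 7.77% to 10.6% in KO.

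Neighbouring genes on the chromosome did not all move with the members. Krt5, 12765 bases beyond Krt6a, was lower in KO, at a log2 fold change of -1.35 (edgeR adjusted p = 3.71e-05), although its next neighbours Krt6a and Krt6b were higher. Krt42, 1853 bases beyond Krt17, had 0, 1 and 1 counts in WT against 23, 25 and 25 in KO and was called higher (edgeR adjusted p = 8.27e-05). Krt14, 38581 bases before Krt16, was higher, at a log2 fold change of 4.15 (SE 0.593, edgeR adjusted p = 0.000427), which was 5.21 without WT replicate 2.

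Next to Krt75, Krt90 begins 393 bases away and had 239, 360 and 179 counts in WT against 433, 341 and 692 in KO. It was called with a log2 fold change of 1.02 (SE 0.305, edgeR adjusted p = 0.018), although KO replicate 2 had fewer counts than WT replicate 2. Leaving out WT replicate 1, WT replicate 3 or KO replicate 3 gave 0.97, 0.84 and 0.69 and no call. The strand used in counting was not stated, so reads of overlapping genes on opposite strands could not be told apart. Another annotated gene, Gm49428, holds 15.5% of the stretches of Krt6a, in a search that covered both strands.

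The remaining keratins of stratified epithelia were mostly higher as well. Of 16 listed, 14 were tested, 10 rose and 2 fell, with a median log2 fold change of 4.04 beside 0.01 over all tested genes, of which 31.8% rose and 30.2% fell. Krt1 and Krt10, the suprabasal pair of epidermis, rose by 9.64 and 9.67 on the log2 scale from at most 226 counts in any WT library. Krt5 and Krt12 fell, and Krt15 had a log2 fold change of 0.15 (edgeR adjusted p = 0.483) and Krt80 one of -0.39 (edgeR adjusted p = 0.14). The direction of the 4 called members was therefore that of most stratified keratins outside the corneal pair.

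Genes known from keratinocytes at wound edges are the setting in which Krt6, Krt16 and Krt17 are usually described. The list used here also holds the alarmin genes S100a8 and S100a9 and the cornified envelope genes Sprr1a and Sprr1b. It therefore does not stand for migration alone. Of 22 listed and tested, 18 rose, 1 fell and 3 did not pass, with a median log2 fold change of 3.24, where 31.8% of all tested genes rose, and the counts were the same without WT replicate 2. Tnc, which encodes the matrix protein tenascin C, rose by 7.02 on the log2 scale (SE 0.27, edgeR adjusted p = 5.75e-07). Itga5, the fibronectin receptor subunit of migrating keratinocytes, rose by 3.16 and Plaur, the urokinase receptor, by 4.06. Tnc, Itga5 and Plaur had at most 17 counts in any WT library, so the size of these folds is uncertain. Over the alternative settings they ran from 2.98 to 7.51 for Tnc, 0.91 to 3.36 for Itga5 and 2.39 to 4.33 for Plaur. Mmp9, a gelatinase, had 0, 0 and 1 counts in WT against 14, 40 and 27 in KO, and Il24, a cytokine of injured keratinocytes, 0, 1 and 0 in WT and 24, 81 and 92 in KO.

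The exceptions in that list included structural and growth factor genes. Lama3, a laminin chain of the epithelial basement membrane, fell by 0.86 on the log2 scale (edgeR adjusted p = 0.00679) while Lamb3, another such chain, rose by 1.25.

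Among ligands of the EGF receptor, Areg rose by 1.54. Hbegf had a log2 fold change of 0.47 (edgeR adjusted p = 0.176) and Tgfa one of 0.33 (edgeR adjusted p = 0.0844). Hbegf passed without WT replicate 3, at 0.90, and with the replicate number as a block, at 0.53. Tgfa passed without KO replicate 2, at 0.47, with that block, at 0.32, and with a correction for gene length, at 0.53. Cd44, the hyaluronan receptor, had 14594, 13070 and 13451 counts in WT against 10995, 13365 and 11726 in KO, and its log2 fold change was -0.08 (edgeR adjusted p = 0.552).

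Of 18 tested transcription factors linked to stress keratin genes, 7 rose, 2 fell and 9 did not pass, with a median log2 fold change of 0.19. This upward share is near that of all tested genes. Nfe2l2, the regulator of antioxidant genes also known as Nrf2, had 2090, 2098 and 2039 counts in WT against 9267, 11085 and 9443 in KO, and rose by 2.37 (SE 0.106, edgeR adjusted p = 1.28e-06). Myc rose by 1.53 and Cebpb by 1.56. Gli2, an effector of hedgehog signalling, had 2, 1 and 6 counts in WT against 135, 80 and 115 in KO. Its log2 fold change of 5.25 is uncertain at such low WT counts, running from 0.81 to 6.21 over the alternative settings.

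Fosl1, an AP-1 subunit, had 1, 1 and 0 counts in WT against 120, 41 and 243 in KO. Its relative Fosl2 fell by 1.04, and Stat3, which mediates signals of several cytokines, fell by 0.33 (edgeR adjusted p = 0.0127). The Stat3 call was lost without WT replicate 3, at -0.28, and with a correction for gene length, at -0.13. Without WT replicate 2, 19 of these genes were tested and 8 rose.

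Of 8 tested proteins that work with keratin filaments, 2 rose and 4 fell, with a median log2 fold change of -0.30, where 31.8% of all tested genes rose and 30.2% fell. Sfn, the 14-3-3 protein that binds keratins in growing keratinocytes, rose by 0.91 and Pkp1, a desmosomal plaque protein, by 0.77. Plec, the plakin that ties filaments to hemidesmosomes, fell by 1.23, and the envelope plakins Evpl and Ppl by 1.17 and 0.61, the Ppl call being lost with a correction for gene length at -0.34. Eppk1, the keratin-binding epiplakin, fell by 0.64 (edgeR adjusted p = 0.0267), a call lost without WT replicate 1, WT replicate 3 or KO replicate 1, at -0.66, -0.58 and -0.68, or with that correction, at -0.33.

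Markers of other cells that the dissected layer could hold moved with genotype too, and their counts stand beside the 31.8% of all tested genes called higher. In bulk samples a different number of cells of a type and a different amount of RNA per cell cannot be told apart. For the goblet cell 3 of 5 listed genes were tested and all 3 rose, the summed level being 1.06 to 2.08 CPM in WT and 7.27 to 29.8 CPM in KO, and Muc5ac had 0 counts in each WT library and 141, 15 and 214 in KO. For stromal keratocytes 5 of 7 were tested and rose. The list summed to 0.687 to 3.21 CPM in WT and 14.9 to 24.6 CPM in KO. Vim held the largest part of the KO sum, at 8.61, 7.98 and 14.4 CPM. Dcn, a stromal proteoglycan, had 153, 24 and 93 counts in KO, while Lum, not tested, had 0 in each WT library and 2, 4 and 1 in KO. For immune cells 5 of 7 rose and 1 fell. Lyz2, the lysozyme of myeloid cells, had 0, 2 and 2 counts in WT against 125, 210 and 227 in KO, and Ptprc rose by 3.69 on the log2 scale. The summed immune levels overlapped, at 267 to 339 CPM in WT and 221 to 304 CPM in KO, a sum made up mostly of Itgam, which fell by 0.60 (edgeR adjusted p = 0.0113).

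For skin appendages, where Krt6a, Krt16, Krt17 and Krt75 are constitutive, Tchh, the trichohyalin of the inner root sheath, was the single tested gene of the 15 hair follicle markers in the table. It had 58, 58 and 147 counts in WT against 195, 208 and 215 in KO. The whole list summed to 3.49 to 7.97 CPM in WT and 11.6 to 12.2 CPM in KO. Most of this was Tchh itself, at 2.66 to 6.96 CPM in WT and 9.88 to 10.7 CPM in KO. Krt26, Krt35, Krt72, Krt73 and Krt86 had at most 3 counts in every library. Sebaceous or meibomian markers, of which 3 of 4 tested rose, summed to 4.88 to 6.89 CPM in WT and 21.3 to 23.7 CPM in KO. The part of these cell types in the keratin differences was not tested.

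**Figure D5:**
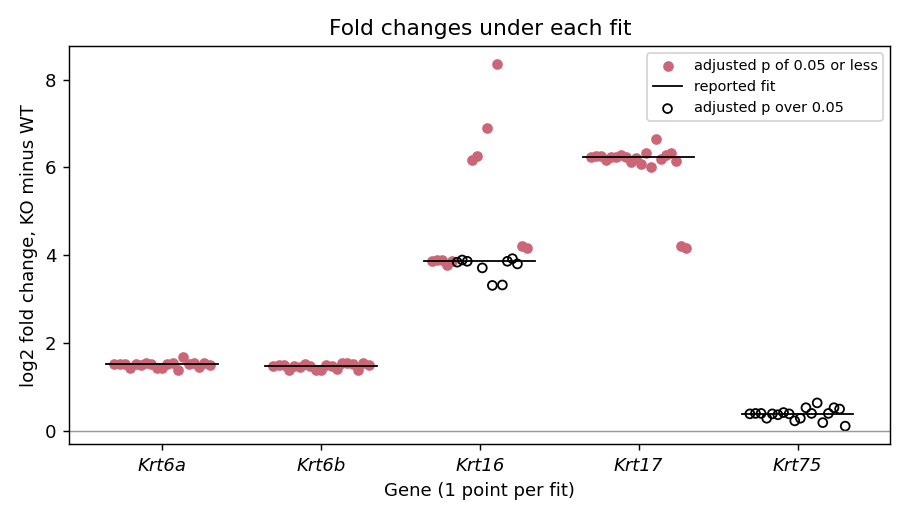
The plot of fold changes under each setting gives the log2 fold change of KO minus WT for each gene, with 1 point per setting including the summed keratins, filled where the adjusted p was 0.05 or less, and a line at the reported value. Krt6a and Krt6b stay between 1.38 and 1.67 and Krt17 is always called, while Krt16 runs from 3.31 to 8.36 with 9 open points and Krt75 is never called.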

How the data were processed

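Corneal epithelial RNA of 3 WT and 3 KO mice was sequenced. Per the methods, rRNA was depleted and single-end reads of 50 bases came from a BGI sequencer, although an Illumina kit is named in the labels. The authors aligned reads with Bowtie2 2.2.5 and estimated gene levels with RSEM 1.2.12, versions as in the submitters' processing notes. The deposited table holds, per library, estimated counts, which divide ambiguous reads among genes. It also holds deposited FPKM, per effective gene length and library total, and deposited TPM, used here only to check that they sum to 1000000. The notes name mm9, but the coordinates are those of GRCm38. The authors' group means and DESeq2 comparison were not used.

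Samples were grouped by their titles and genotype labels. The estimated counts, rounded to whole numbers, were tested with edgeR 4.0.16 (R 4.3.3; TMM, filterByExpr, quasi-likelihood test, genotype as the only term, Benjamini-Hochberg over 13305 genes). TMM factors were 1.01 to 1.05 in WT and 0.952 to 0.99 in KO. The tests were tried on simulated data. Intervals cover the spread between these libraries, and nothing here corrects for PCR copies. Genes named were the 5 keratins, Rela, lists of related genes and of cell type markers, chromosome neighbours, and the 3 genes of most similar pattern per keratin. The genes and lists were chosen with earlier results of these data known. Alternatives were DESeq2 1.42.0, limma 3.58.1 on log2(FPKM + 1) and log2(FPKM + 0.1), other scalings and filters, a robust fit, a length correction, a replicate block, summed keratins and leaving out each library. Applying them to genes other than the 5 keratins, and list counts without WT replicate 2, were added after seeing the data. Sequences came from GENCODE M21 (Biopython 1.88, Python 3.11.15). The values of 2 further listed genes are not reported here.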

Additional observations from a re-analysis of the deposited data

How the results depend on the processing

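Krt6a, Krt6b and Krt17 (17 of 17 settings each) kept their direction and call, at log2 fold changes of 1.39 to 1.67, 1.38 to 1.54 and 6.01 to 6.65, and Krt75 was never called (0.10 to 0.63). The sum of Krt16 and Krt17 had 4.22 and that of Krt14, Krt16 and Krt17 had 4.17, both called. Krt16 stayed upward but lost its call with no filter on low counts (3.84, adjusted p = 0.0567), a mean count of at least 50 (3.89, adjusted p = 0.0503), a robust fit (3.86, adjusted p = 0.17) and a length correction (3.71, adjusted p = 0.0569), all with edgeR, and the cause was not tested. Leaving out 1 library gave Krt16 values of 3.31 to 8.36. Thus 3 or 4 of the 5 genes were called. With the length correction Gm10639 and Phlda2, never called, turned to -0.22 and -0.40, and the cause was not tested. Replicate numbers did not pair the libraries, as deviations of same-numbered libraries correlated at 0.0646, -0.0216 and 0.0642. With the number as a block, Krt16 had 6.89 (adjusted p = 0.0117, edgeR), 4 of the 5 genes and 8083 of all genes were called. Without composition factors 3709 genes were called higher and 4630 lower, against 4231 and 4022. At this depth, genes with 3 counts or fewer in each WT library, such as Fosl1, allow no fold estimate. With 3 libraries a group a single library decides the Krt16 error.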
